A study of Mus musculus with 18 samples.

Results

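Wild-type mouse CD4+ T cells stimulated in the presence of compound A were compared with CD4+ T cells lacking ERRα that were stimulated without any compound. The samples were chosen by their titles, 3 arrays of compound A and 3 arrays of stimulated knockout cells out of 18 arrays in the series. The features were 10691 of 20380 single-gene probe sets, those that reached a log2 signal of 4 on at least 3 of the 18 arrays, and they represent 6873 genes. The comparison asks what the chemical did that loss of the receptor did not. The compound A cells were of WT genotype and the knockout cells were ERRa-/-. All mice were 6 to 8 weeks old, and the labels name no strain, no sex and no details of the deletion. The cells were isolated by negative selection, with a purity above 95% stated in the labels, and both groups received 10 µg of antibodies to CD3 and CD28 for 12 h. Compound A was present at 20 µM in its group, and no compound was given to the knockout cells. Stimulated wild-type cells without compound, resting wild-type cells, resting knockout cells and stimulated wild-type cells given 20 µM XCT790, each on 3 arrays, are used below only as reference points. Each assay held 3 independent biological replicates, per the series' design text.

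ERRα, encoded by Esrra, is an orphan nuclear receptor. With coactivators of the PGC-1 family it binds a short DNA element near genes of fatty acid oxidation, the tricarboxylic acid cycle and the respiratory chain, and it is best known for raising mitochondrial capacity in muscle, heart and brown fat. T cells that meet antigen leave quiescence, grow, raise glycolysis and mitochondrial metabolism, and begin to produce cytokines. Compound A is known here only by its code name, as an inhibitor of ERRα, and XCT790 is an inverse agonist of the receptor. If an inhibitor and loss of its target had equal effects, a gene would read alike in both groups.

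Once sorted, the values were identical on all 18 arrays (1.83 to 15.4, median 3.55), so every difference is relative to the other genes of an array, and the number of arrays limits the precision. One label field of the compound A arrays gives no stimulation, but the treatment protocol and the series design put the compound into the 12 h stimulation. Il2, the growth factor that activated T cells release, read 9.80, 10.59 and 10.58 on the compound A arrays against 3.96, 4.74 and 4.68 on resting wild-type arrays. The 10 T cell markers with a probe set were all tested, none was under log2 4 throughout, and their summed signal was 47155 to 48447 on compound A arrays and 36650 to 40762 on knockout arrays. The 5′ probe set of the bacterial dap RNA control read 7.77 to 8.10 with compound A and 7.57 to 7.99 in stimulated knockout cells, but 4.49 to 5.68 in stimulated wild-type cells. The 3′ probe set of the same RNA showed no such split, at 10.80 to 10.98, 10.68 to 10.99 and 10.57 to 10.88. The 2 groups compared thus lie on the same side of the 5′ split, and each position relative to stimulated wild-type cells given below crosses it. In such bulk samples, fewer cells of a type and less RNA per cell cannot be told apart.

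Compound A differed from the knockout in many genes, mostly by modest amounts. Of 6873 genes, 1726 (25.1%) passed an adjusted p of 0.05 in limma, 935 of them higher with compound A (13.6%) and 791 lower (11.5%). The other 5147 genes did not pass, and the median difference over all genes was 0.01 on the log2 scale. At least 2-fold differences numbered 238 (3.46%) and were mostly falls, 155 genes (2.26%) against 83 rises (1.21%). The 3 arrays of each group did not overlap for 3299 genes (48.0%). The number of genes that passed was 1029 without compound A array 2, 1053 without compound A array 3, and 2691 on the arrays numbered 2 and 3 alone.

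Against stimulated wild-type cells, 2271 genes (33.0%) passed with compound A and 203 (2.95%) in the knockout, and these comparisons share their wild-type arrays. Stimulated wild-type cells without compound lay closer to the knockout than to compound A for 1525 of the 1726 genes (88.4%), beside 4752 of all 6873 genes tested (69.1%). Over the genes that passed, the median distance from stimulated wild-type cells was 0.49 for compound A and 0.13 for the knockout, in log2 units without sign. Of the 238 genes that passed with at least a 2-fold difference, 168 (70.6%) lay closer to the knockout. Both distances use the same 3 wild-type arrays.

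**Figure D1:**
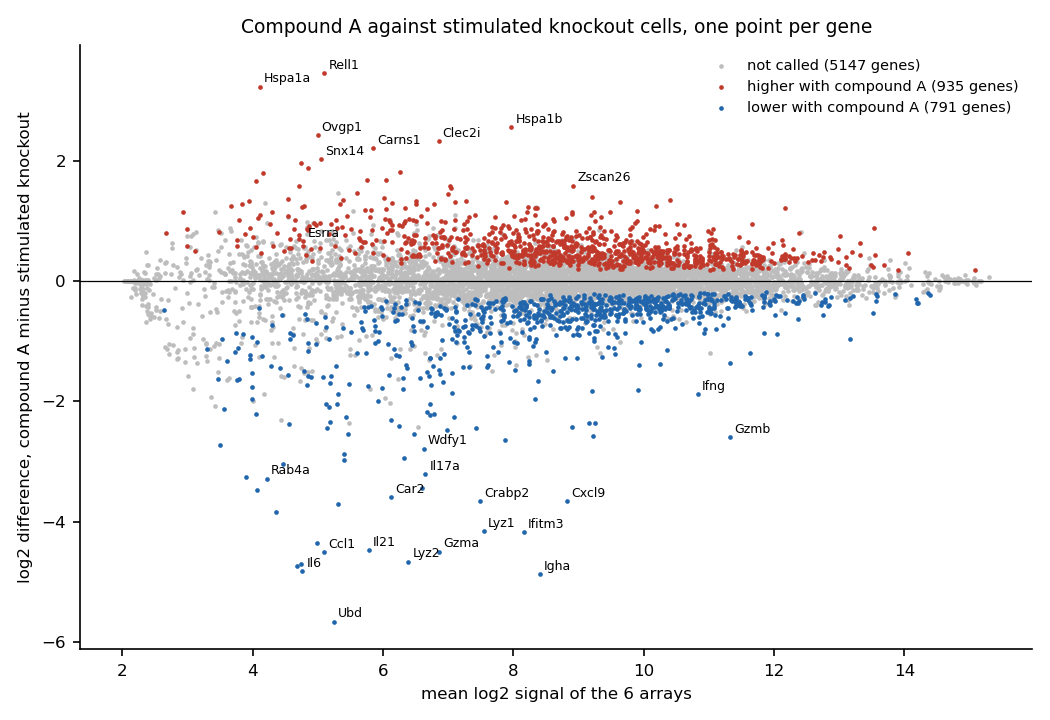
Each point is a gene, with its mean log2 signal over the 6 arrays on the x axis and the log2 difference of compound A minus stimulated knockout on the y axis; 935 genes in red were higher with compound A, 791 in blue were lower and 5147 in grey did not pass. The falls reach further than the rises, down to -5.66 for Ubd against 3.45 for Rell1.

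Esrra itself separated the genotypes by a small margin at a low signal. It read 5.10, 5.10 and 5.12 with compound A, 4.33, 4.30 and 4.71 in the stimulated knockout, and 5.28, 5.47 and 5.36 in wild-type cells stimulated without compound. Resting cells read 5.51, 5.25 and 5.51 in the wild type and 4.34, 4.65 and 4.65 in the knockout. The knockout arrays were the lowest and did not overlap the wild-type arrays. Compound A was 1.58-fold above the knockout (log2 difference 0.66 ± 0.11, SE; limma adjusted p = 0.00129) and -0.26 ± 0.11 from stimulated wild-type cells, which did not pass (adjusted p = 0.0914). Whether the Esrra probe set falls inside the deletion is not given in the labels, so its signal is a limited check of the genotype. Of the 7 tested genes that encode ERR receptors and their coregulators, only Esrra passed, and their median difference was 0.17.

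Crabp2 had the smallest adjusted p of all genes tested, and Crabp2 and Ccl1 fell far below stimulated wild-type cells with compound A while the knockout stayed nearer to them. Crabp2 encodes a carrier that delivers retinoic acid to its nuclear receptor. It read 5.90, 5.79 and 5.30 with compound A, 9.67, 9.25 and 9.04 in the knockout and 10.10, 9.98 and 9.88 in stimulated wild-type cells. Compound A was 12.6-fold below the knockout (-3.66 ± 0.15; adjusted p = 4.13e-09), with no overlap and little spread between the arrays of either group. Against stimulated wild-type cells the difference was -4.32 with the compound (adjusted p = 3.90e-10) and -0.67 in the knockout (adjusted p = 0.0153). Ccl1, a chemokine of activated T cells that attracts cells bearing the receptor CCR8, showed the same order. Its arrays read 2.71, 3.09 and 2.73 with compound A, 6.53, 7.92 and 7.59 in the knockout and 7.68, 7.33 and 7.53 in stimulated wild-type cells. All compound A arrays were under log2 4, so the fold is a bound, at least 10.2-fold (-4.50 ± 0.34; adjusted p = 2.31e-06). The knockout differed from wild-type cells by -0.17 in Ccl1 (adjusted p = 0.854).

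Granzymes, the proteases of cytotoxic granules, also fell. Gzma read 4.09, 4.82 and 4.93 with compound A against 8.83, 9.25 and 9.25 in the knockout and 8.00, 7.78 and 7.88 in stimulated wild-type cells. Compound A was 22.6-fold below the knockout (-4.50 ± 0.30; adjusted p = 9.24e-07), and the 3 groups did not overlap, with the knockout highest. Gzma was also high in resting cells, at 7.95, 8.69 and 8.42 in wild-type and 8.46, 9.36 and 9.32 in knockout cells. Gzmb read 10.57, 9.65 and 9.88 with compound A and 13.14, 12.33 and 12.40 in the knockout, a 6.04-fold fall (-2.59 ± 0.30; adjusted p = 0.000106). Markers of other cytotoxic cells were mixed. The natural killer list holds Gzma itself, and its other 5 markers summed to 298 to 416 with compound A and 598 to 791 in the knockout, with Klra8 and Ncr1 under log2 4 on all 6 arrays. Of these, Nkg7, a granule membrane protein, fell (-1.33 ± 0.22; adjusted p = 0.000921). The 4 CD8 T cell markers summed to 554 to 611 against 908 to 1089, with Cd8a and Gzmk under log2 4 throughout. Most of that sum was Eomes, a transcription factor of cytotoxic cells, while Cd8b1, a chain of the CD8 coreceptor, lay in the other direction, at 6.59, 7.48 and 7.54 with compound A against 5.73, 6.64 and 6.59. Neither Eomes (-1.10) nor Cd8b1 (0.88) passed. Their part in the granzyme result was not tested.

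Several cytokine genes lay on opposite sides of stimulated wild-type cells, low with compound A and high in the knockout. Il21 encodes a cytokine with which CD4+ T cells help B cells. It read 3.61, 3.47 and 3.56 with compound A, 9.11, 7.63 and 7.32 in the knockout and 5.65, 5.11 and 6.25 in stimulated wild-type cells. The groups did not overlap, and compound A was at least 16.2-fold below the knockout (-4.47 ± 0.60; adjusted p = 0.00023). From stimulated wild-type cells Il21 differed by -2.13 with the compound (adjusted p = 0.0133) and by 2.35 in the knockout (adjusted p = 0.0356). Il6, a pleiotropic inflammatory cytokine, read 2.30, 2.28 and 2.46 with compound A, 8.43, 6.62 and 6.45 in the knockout and 4.60, 2.61 and 4.01 in stimulated wild-type cells. That is at least 8.98-fold lower with compound A (-4.82 ± 0.46; adjusted p = 2.55e-05), and the difference was -4.18 without knockout array 1. Here too the difference had 2 sides, -1.39 for the compound (adjusted p = 0.0312) and 3.43 for the knockout (adjusted p = 0.000325). The compound side of Il6 is weakly measured, since all compound A arrays and wild-type array 2 were under log2 4 and the other wild-type arrays near it.

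The interferon-induced genes Ubd and Cxcl9 followed the same order. Ubd encodes a ubiquitin-like modifier that marks proteins for the proteasome. It read 2.99, 2.13 and 2.13 with compound A, 9.86, 7.42 and 6.96 in the knockout and 7.40, 5.02 and 5.55 in stimulated wild-type cells, at least 16.9-fold lower with compound A (-5.66 ± 0.63; adjusted p = 7.03e-05; -4.77 without knockout array 1). The compound side passed for Ubd (-3.57; adjusted p = 0.000651) and the knockout side did not (2.09; adjusted p = 0.0808). Cxcl9, a chemokine for CXCR3-bearing T cells, was 12.6-fold lower (-3.66 ± 0.53; adjusted p = 0.000384; -2.89 without knockout array 1). Il17a, the signature cytokine of Th17 cells, differed on the knockout side. It read 5.26, 4.23 and 5.63 with compound A and 4.87 to 6.23 in stimulated wild-type cells, which overlap, but 9.76, 7.62 and 7.39 in the knockout. The compound A difference from the knockout was -3.22 ± 0.54 (adjusted p = 0.00109; -2.46 without knockout array 1), from stimulated wild-type cells -0.32 (adjusted p = 0.700), and the knockout raised Il17a by 2.89 (adjusted p = 0.00452).

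**Figure D2:**
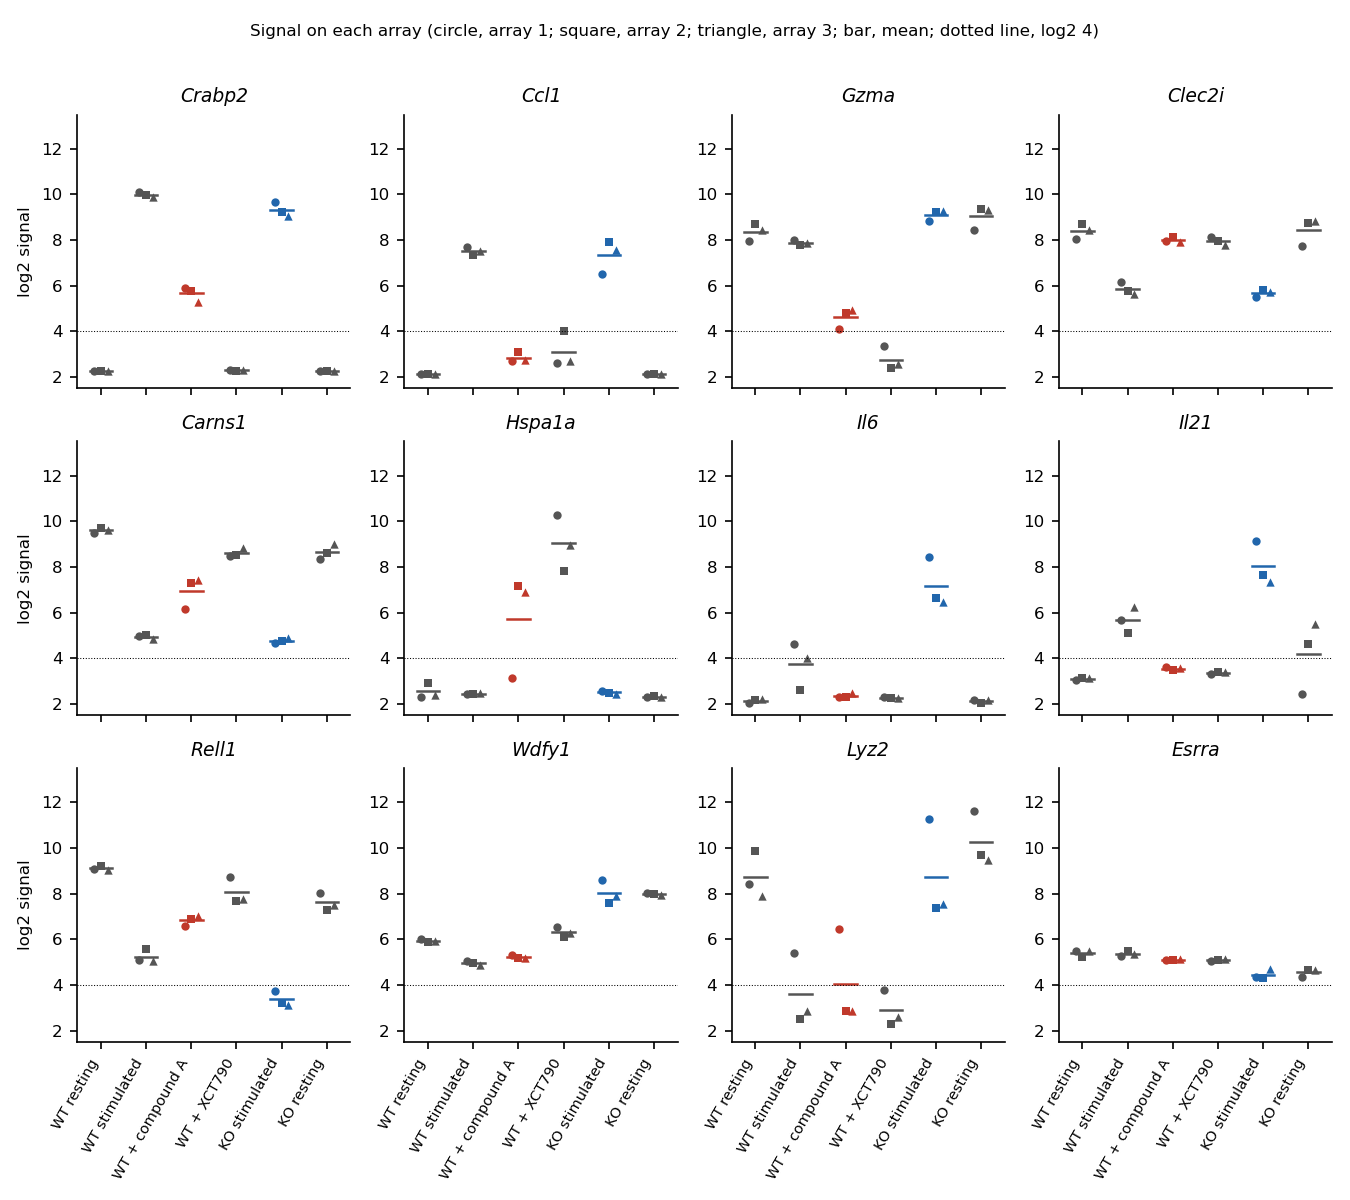
Log2 signal of 12 genes on every array of the 6 groups, with compound A in red, stimulated knockout in blue, group means as bars, the array number by marker shape and log2 4 dotted. Crabp2 and Ccl1 are low with compound A and near the stimulated wild-type level in the knockout, Gzma, Il21 and Il6 are low with compound A and above that level in the knockout, and Wdfy1 is high in knockout cells alone, at rest and after stimulation.

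Chemokine ligands were the list with the largest shift. Of 12 tested, 11 fell and none rose, beside 11.5% falls among all genes tested, and their median was -2.39. By unadjusted p under 0.05 all 12 fell. Both groups departed from stimulated wild-type cells. Compound A had 5 falls against those cells, with a median of -1.35. The knockout lay above them for 11 of the 12, with a median of 1.31, and 1 passed. Ccl3, an inflammatory chemokine, read 8.35, 7.25 and 7.48 with compound A and 10.48, 9.90 and 9.96 in the knockout, a 5.37-fold fall (-2.43 ± 0.51; adjusted p = 0.00426). Ccl17, a ligand of CCR4, read 2.48, 2.35 and 2.35 against 9.59, 5.68 and 6.02, at least 8.55-fold lower, with knockout array 1 well above the others (-4.70 with all arrays and -3.46 without it). The other falls were Ccl1, Ccl4, Ccl6, Ccl9, Ccl22, Ccl24, Cxcl9, Cxcl10 and Xcl1, and Ccl5 (-1.27; adjusted p = 0.110) did not pass. The number of falls was 7 without compound A array 2. Several of these chemokines are also products of macrophages and dendritic cells, whose markers are given below.

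T cell cytokines fell less evenly. Of 22 tested, 8 fell (36.4%, beside 11.5% of all genes), 2 rose (Ltb and Fasl) and 12 did not pass, with a median of -0.70. Besides Il6, Il17a and Il21 the falls were Il3, Il4, Ifng, Lif and Penk. Both groups departed from stimulated wild-type cells. Compound A had 8 falls and 2 rises against those cells, beside 1281 falls and 990 rises among all 6873 genes. The knockout had 4 rises and no falls against them, beside 141 rises and 62 falls among all genes. Ifng, the macrophage-activating cytokine of Th1 cells, read 10.00, 9.29 and 10.39 with compound A and 11.82, 11.80 and 11.70 in the knockout, a 3.68-fold fall (-1.88 ± 0.34; adjusted p = 0.00157). Lif, a cytokine of the IL-6 family, read 6.10, 6.03 and 6.47 against 9.23, 8.41 and 8.29, a 5.46-fold fall (-2.45 ± 0.44; adjusted p = 0.00161; -1.56 with the mean of its probe sets). Il3, which supports haematopoietic progenitors, read 2.14 on each compound A array and 4.30, 4.85 and 5.46 in the knockout, at least 1.83-fold lower (-2.73 ± 0.23; adjusted p = 5.43e-06). Il2 read 11.09, 10.69 and 10.65 in the knockout and differed by -0.49 (adjusted p = 0.223). Il2ra, the high-affinity IL-2 receptor chain, differed by -0.34 and did not pass either (adjusted p = 0.298). Of 25 T cell activation genes only Gzmb, Myc and Batf passed, all lower, a share near the 11.5% of all genes that fell, with a median of -0.25. With array weights 10 fell and on the arrays numbered 2 and 3 alone 9. Myc, the transcription factor of T cell growth, fell 1.35-fold (-0.44 ± 0.10; adjusted p = 0.00837).

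**Figure D3:**
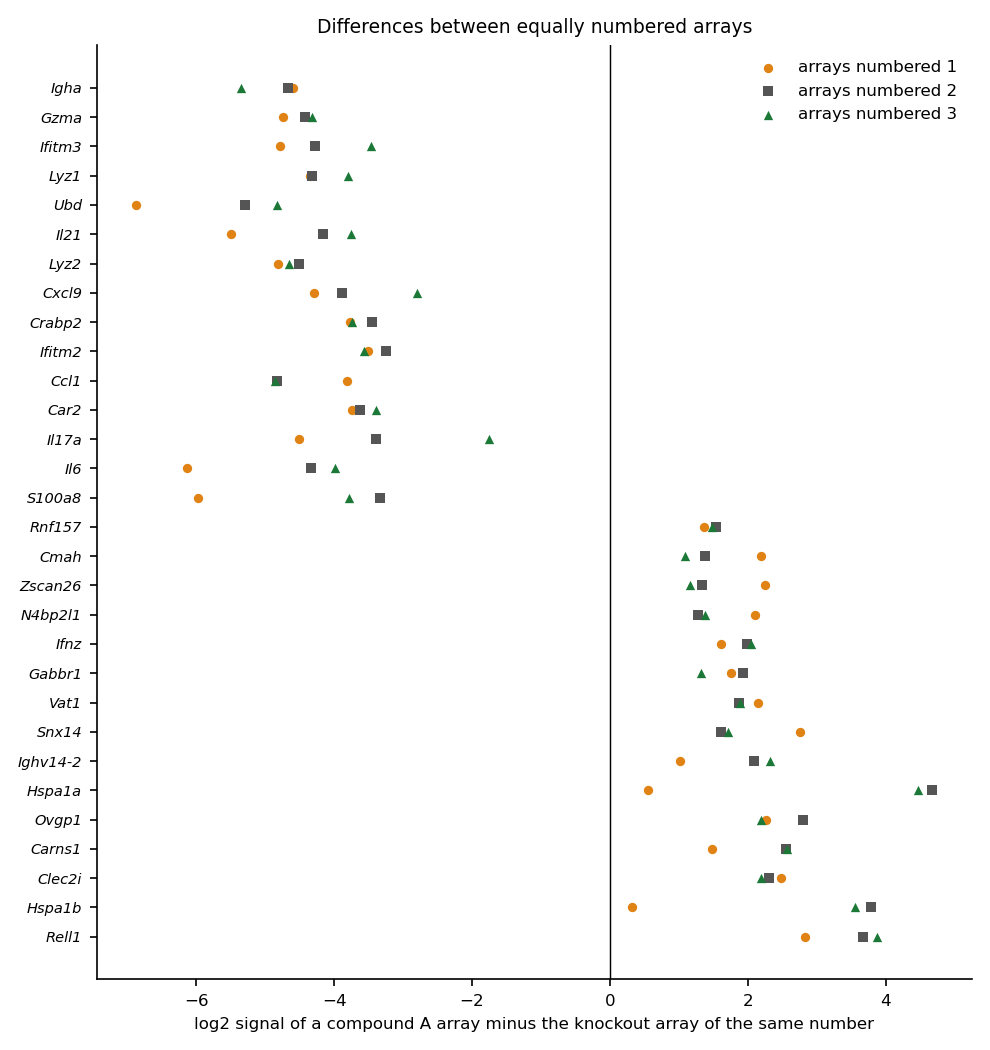
For the 15 largest falls and 15 largest rises, each marker is the log2 signal of a compound A array minus that of the knockout array of the same number. Every difference shown has the direction of its gene, which was fixed in advance because the genes were chosen without overlap of the arrays. For Hspa1a and Hspa1b the arrays numbered 1 lie far closer to 0 than the others.

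Transcripts of myeloid cells and of antibody-producing cells were high on the knockout arrays, and most on knockout array 1. Lyz2, which encodes lysozyme, read 6.46, 2.85 and 2.87 with compound A, 11.28, 7.36 and 7.53 in the knockout and 5.38, 2.52 and 2.85 in stimulated wild-type cells. Compound A was lower (-4.66 ± 1.17; adjusted p = 0.0109) and overlapped wild-type cells (0.47; adjusted p = 0.807), while the knockout was 5.13 above wild-type cells (adjusted p = 0.0183). The Lyz2 call ended without compound A array 2 or 3 (adjusted p = 0.0545 and 0.0525), and the difference was -3.39 without knockout array 1. Its near-identical neighbour Lyz1 moved likewise (-4.16 ± 1.21; adjusted p = 0.0223), and their probe sets may read each other's transcripts. S100a8, a calcium-binding protein of neutrophils and monocytes, read 4.08, 2.18 and 2.18 with compound A against 10.06, 5.50 and 5.95 (-4.36 ± 1.09; adjusted p = 0.0107; -2.92 without knockout array 1). Igha, the constant region of IgA, read 7.62, 5.61 and 4.68 against 12.21, 10.28 and 10.03, a 29.3-fold fall (-4.87 ± 1.04; adjusted p = 0.00442; -4.19 without knockout array 1, -4.23 without compound A array 3 and -5.70 without compound A array 1). Ifitm3 and Ifitm2, antiviral membrane proteins, differed by -4.18 ± 0.99 (adjusted p = 0.00794) and -3.44 ± 0.84 (adjusted p = 0.0093), and Ifitm3 by -3.01 without knockout array 1. Car2, a carbonic anhydrase abundant in red cells, read 6.04, 3.37 and 3.57 against 9.79, 6.99 and 6.97 (-3.59 ± 0.98; adjusted p = 0.0168). The Car2 call ended without compound A array 2 or 3 (adjusted p = 0.0763 and 0.0693) or knockout array 1 (-2.66; adjusted p = 0.0766), and that of Lyz1 without the same arrays (0.100, 0.0865 and 0.102).

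Marker lists of those cell types were high mainly on knockout array 1, and part of their sums comes from the genes just described. The 16 macrophage markers summed to 101 to 186 with compound A, 267 to 2633 in the knockout and 101 to 134 in stimulated wild-type cells. Without Lyz2 the other 15 summed to 93.5 to 98.7 with compound A and to 154, 103 and 89.5 on knockout arrays 1, 2 and 3. Of the 16, 13 were under log2 4 on all 6 arrays, including Csf1r, Adgre1, Cd14, C1qa, C1qb and C1qc. Neutrophil markers summed to 50.7 to 64.0 and 95.9 to 1859, with 6 of 11 under log2 4, including Elane, Camp and Ltf. Without S100a8 and S100a9 the other 9 summed to 41.6 to 41.7 with compound A and to 273, 41.6 and 42.0 on the knockout arrays. On the compound A arrays and knockout arrays 2 and 3 all 9 were under log2 4, where these sums cannot show a difference. S100a9 read 3.15 and 4.43 on knockout arrays 2 and 3, against 2.42, 2.20 and 2.20 with compound A. Erythroid markers summed to 46.0 to 46.2 with compound A and to 228, 46.2 and 46.2 in the knockout, with 9 of 10 under log2 4, including Hba-a1 and Klf1. Platelet markers summed to 63.4 to 180 against 931, 101 and 103, with 5 of 6 under log2 4, and dendritic cell markers to 4124 to 6035 against 9936, 4422 and 4280, with Itgax, Flt3 and Xcr1 of 9 under log2 4. For the erythroid, platelet and dendritic cell lists knockout arrays 2 and 3 thus lay within or close to the range of compound A. The full macrophage and neutrophil sums of those arrays lay above it, at 267 and 274 and at 95.9 and 126. B cell markers split. The 11 markers summed to 6968 to 9925 with compound A and 10993 to 19477 in the knockout, a sum made mostly of Ighm, the IgM heavy chain (-0.97 ± 0.24; adjusted p = 0.0104). The other 10 went in the opposite direction, with sums of 1136 to 1709 against 583 to 945, with Cd22, Ebf1, Pax5 and Vpreb3 under log2 4. Of 8 tested, 7 lay above 0, and Ms4a1, which encodes CD20, rose (1.15 ± 0.27; adjusted p = 0.00773). The part of such cells in the differences of Lyz2, Lyz1, S100a8, Igha, Ifitm3, Ifitm2, Car2, the chemokines and the interferon-stimulated genes was not tested.

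Interferon-stimulated genes were lower with compound A than in the knockout, and much of their median came from knockout array 1. Of 19 tested, 6 fell (31.6%, beside 11.5% of all genes) and none rose. Of the 19, 18 lay below 0 and the median was -1.28, but the median was -0.24 without knockout array 1. Against stimulated wild-type cells, compound A had 1 rise, no falls and a median of -0.12. The knockout lay above those cells for all 19 genes, with a median of 1.09, and 1 of them passed. A fit on the 2 groups alone left 1 fall, and without compound A array 2 there were 4. Usp18, which removes the interferon-induced modifier ISG15, read 7.67, 7.85 and 8.46 with compound A and 11.35, 9.88 and 9.80 in the knockout, a 5.11-fold fall (-2.35 ± 0.33; adjusted p = 0.000319). Oas1a, a sensor of double-stranded RNA, read 4.68 to 5.45 against 9.33, 6.52 and 6.52, and its difference was -2.41 with all arrays and -1.47 without knockout array 1.

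Other genes separated the groups because the knockout, not the compound, departed from wild-type cells, and 3 of them did so on every knockout array. They were chosen after their values were seen. Wdfy1, an endosomal adaptor protein, read 5.29, 5.20 and 5.20 with compound A, 8.59, 7.59 and 7.88 in the stimulated knockout and 5.06, 4.96 and 4.85 in stimulated wild-type cells. In resting cells it read 8.04, 7.96 and 7.94 in the knockout and 6.01, 5.90 and 5.92 in the wild type. Compound A was 6.90-fold below the knockout (-2.79 ± 0.18; adjusted p = 9.24e-07; -1.67 with the mean of its probe sets) and differed from stimulated wild-type cells by 0.27 (adjusted p = 0.278). Rab4a, a GTPase of endosome recycling, read 2.64, 2.52 and 2.56 with compound A and 6.08, 5.71 and 5.78 in the knockout, at least 3.62-fold lower (-3.28 ± 0.33; adjusted p = 2.99e-05), and -0.02 from stimulated wild-type cells (adjusted p = 0.984). Chchd10, a protein of the mitochondrial intermembrane space, went the other way, at 10.60, 11.36 and 11.27 with compound A, 9.57, 9.79 and 9.85 in the stimulated knockout and 10.68, 10.96 and 10.81 in stimulated wild-type cells. Compound A was 2.53-fold above the knockout (1.34 ± 0.18; adjusted p = 0.000268) and 0.26 from wild-type cells (adjusted p = 0.300), and the knockout was -1.08 from wild-type cells (adjusted p = 0.00222). Resting knockout cells were lower still for Chchd10, at 8.67, 8.96 and 8.72.

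The rises were smaller than the falls. Rell1, a member of the RELT family of receptors related to the tumour necrosis factor receptors, led them. Its lowest compound A arrays read 6.58 and 6.90, against 3.75, 3.23 and 3.13 in the knockout and 5.07, 5.56 and 5.06 in stimulated wild-type cells. The mean was at least 7.10-fold higher with compound A than in the knockout (3.45 ± 0.27; adjusted p = 2.50e-06). The 3 groups did not overlap, and Rell1 differed from stimulated wild-type cells in opposite directions, by 1.60 with the compound (adjusted p = 0.000446) and -1.86 in the knockout (adjusted p = 0.000538). In resting knockout cells Rell1 read 8.04, 7.29 and 7.51, far above the stimulated knockout cells, and its other tested probe set also rose (2.72; adjusted p = 0.000186).

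Several of the other rises were of genes that stimulation lowers. Clec2i, a C-type lectin that is a ligand of natural killer receptors, read 7.98, 8.13 and 7.94 with compound A, 5.50, 5.83 and 5.74 in the knockout, 6.17, 5.75 and 5.63 in stimulated and 8.03, 8.71 and 8.44 in resting wild-type cells. It was 5.01-fold higher with compound A than in the knockout (2.33 ± 0.25; adjusted p = 5.21e-05), near the resting level, while knockout and stimulated wild-type cells overlapped. Carns1, which makes the dipeptide carnosine, read 6.13, 7.29 and 7.44 against 4.65, 4.73 and 4.88, a 4.60-fold rise (2.20 ± 0.26; adjusted p = 0.00011), with 9.47, 9.72 and 9.63 in resting wild-type cells. Snx14, a sorting nexin of lipid droplets and lysosomes, read 6.03, 6.09 and 6.04 against 3.28, 4.49 and 4.34, at least 3.44-fold higher (2.02 ± 0.31; adjusted p = 0.00061), with 7.75, 7.65 and 7.90 at rest. Ovgp1, a chitinase-like glycoprotein, rose at least 4.40-fold (adjusted p = 0.000691), Gabbr1, a subunit of the GABA type B receptor, 3.18-fold (adjusted p = 0.00147), N4bp2l1 3.00-fold (adjusted p = 0.00011) and Zscan26, a zinc finger protein, 3.00-fold (adjusted p = 0.000938). Vat1 and Rnf157 rose without being high at rest. Vat1, a vesicle membrane protein, read 5.66, 5.95 and 5.55 with compound A, 3.52, 4.07 and 3.67 in the knockout and 2.77, 2.74 and 2.90 in resting wild-type cells, at least 3.23-fold higher with compound A than in the knockout (1.97 ± 0.24; adjusted p = 0.000141). Rnf157, a ubiquitin ligase, rose 2.75-fold (1.46 ± 0.22; adjusted p = 0.000538). Cmah, which hydroxylates sialic acid, rose 2.93-fold (adjusted p = 0.00126), Ifnz, an interferon-like gene, at least 3.18-fold (adjusted p = 0.00213), and Ighv14-2, an antibody variable region, 3.50-fold (adjusted p = 0.00462).

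**Figure D4:**
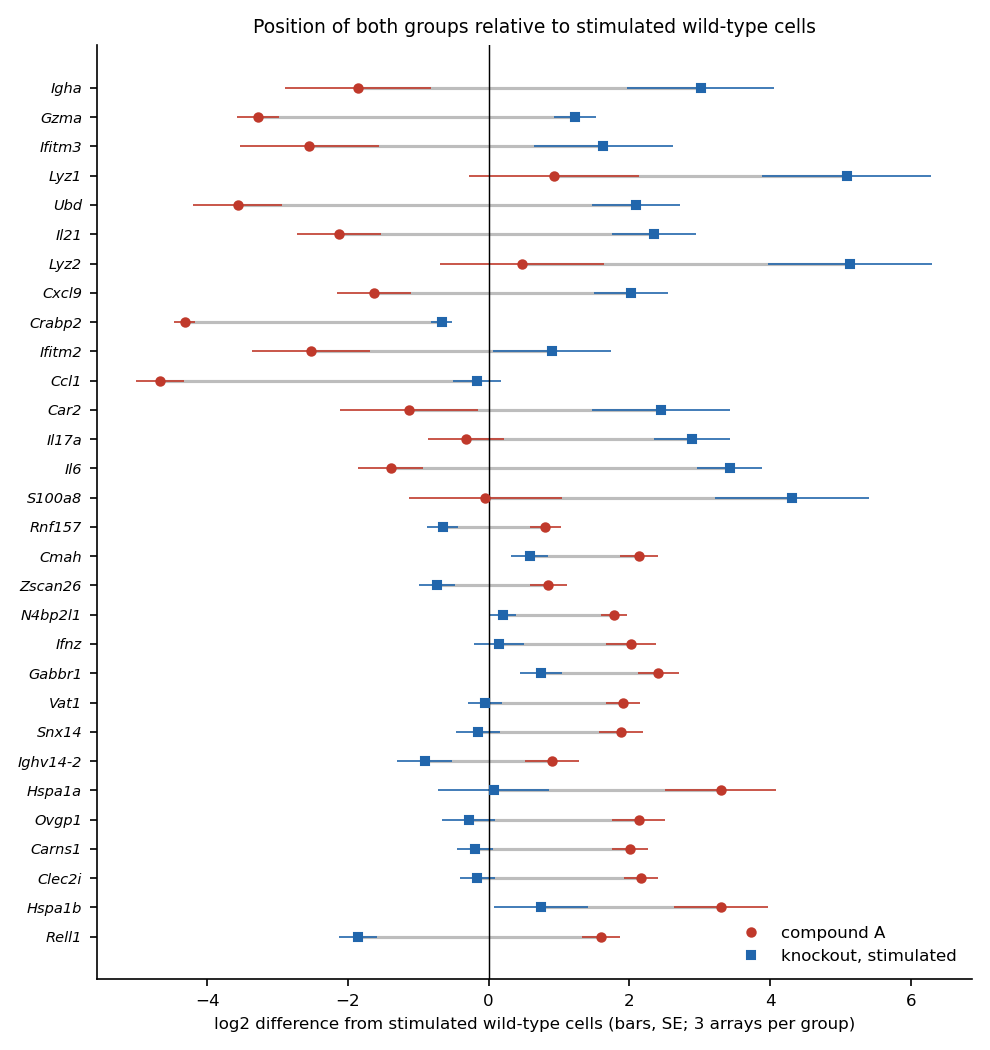
For the 15 largest falls and 15 largest rises, circles give compound A and squares the stimulated knockout as log2 differences from stimulated wild-type cells, with SE bars, 3 arrays per group. For Crabp2, Ccl1, Clec2i and Carns1 the knockout lies near 0 (-0.67, -0.17, -0.16 and -0.19) and compound A far from it (-4.32, -4.67, 2.17 and 2.01). For Lyz2 and Il17a it is the knockout that departs. Rell1, Il21 and Il6 lie on both sides, but the compound side of Il6 rests on signals near or under log2 4.

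The heat shock genes Hspa1a and Hspa1b, near-identical inducible HSP70 genes, were among the largest rises, almost entirely on compound A arrays 2 and 3. Hspa1a read 3.13, 7.16 and 6.90 with compound A against 2.57, 2.49 and 2.44 in the knockout and 2.41, 2.41 and 2.47 in stimulated wild-type cells. The array means differed by 3.23 ± 0.79 (adjusted p = 0.0096), at least 3.31-fold with the knockout arrays set to log2 4 and the compound A arrays as measured. Without compound A array 2 or 3 the call ended (2.51 and 2.65; adjusted p = 0.0538 and 0.0514), and without array 1 the difference was 4.53. Hspa1b read 7.18, 10.47 and 10.08 against 6.87, 6.68 and 6.52, a 5.86-fold rise (2.55 ± 0.67; adjusted p = 0.0137), whose call ended without compound A array 2 or 3 (1.94 and 2.13; adjusted p = 0.0747 and 0.0673) and which was 3.58 without array 1. Their probe sets may read each other's transcripts. Heat shock factor binds inverted repeats of nGAAn, and the promoters of both genes hold the letters GAANNTTC, printed here to show that the stretch is identical in the 2 genes. The capitals mark the match, which begins at position -104 relative to the transcript start; the sequences are from RefSeq, build GRCm38.p6, minus strand, Hspa1a at chr17:34972238-34972275 and Hspa1b at chr17:34959320-34959357.
Hspa1a: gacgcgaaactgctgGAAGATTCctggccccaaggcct
Hspa1b: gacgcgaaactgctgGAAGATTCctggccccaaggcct
These letters occur on either strand in 9.04% of all 27025 promoters in that table, in 7.11% of the 5666 promoters of tested genes, in 7.01% of genes that rose and in 8.17% of genes that fell. A match describes letters and is not a measured binding site. Of 20 cytosolic heat shock genes tested, 3 rose and none fell, a share of rises near the 13.6% of all genes, with a median of -0.01. Without compound A array 2 or 3 only 1 rose. The third, Dnajb4, an HSP40 co-chaperone, read 7.44, 7.45 and 7.36 against 6.49, 6.74 and 6.82, a 1.67-fold rise (0.74 ± 0.12; adjusted p = 0.000809).

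Genes of growth and proliferation leaned lower with compound A. Of 38 DNA replication genes tested, 14 fell (36.8%, beside 11.5% of all genes) and 1 rose (Rpa1), 36 lay below 0 and the median was -0.53, beside a median of 0.01 over all genes tested. Mcm4, a subunit of the replicative helicase, read 10.98, 10.58 and 10.56 with compound A and 11.65, 11.46 and 11.43 in the knockout, with 11.73, 11.63 and 11.63 in stimulated wild-type cells. It fell 1.75-fold (-0.80 ± 0.13; adjusted p = 0.000876), and the knockout differed from wild-type cells by -0.15 (adjusted p = 0.601). Cdc6, which loads that helicase at origins, read 3.36, 3.38 and 3.35 against 6.71, 5.57 and 4.95, at least 3.35-fold lower (-2.38 ± 0.54; adjusted p = 0.00595). Mcm3 fell 2.21-fold (adjusted p = 0.00541) and Rfc3, a subunit of the clamp loader, 2.26-fold (adjusted p = 0.00192). The number of replication genes that fell was 9 without compound A array 2, 7 without compound A array 3, 9 without knockout array 1 and 9 without knockout array 2, while their median stayed between -0.47 and -0.63 when any array was left out. It was 23 in a fit on the 2 groups alone, 35 with array weights and 35 on the arrays numbered 2 and 3 alone, and 9 with no filter.

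Mitosis and spindle genes had a like median of -0.56, but only Ccna2 and Birc5 of 25 passed, both lower (8.0%, beside 11.5% of all genes). With the array number as a block 8 passed, among them Mki67, Top2a and Ube2c, and 10 fell with array weights and 10 on the arrays numbered 2 and 3, where the medians were -0.24 and -0.18. Mki67, the proliferation marker Ki-67, read 5.76, 3.36 and 3.79 with compound A and 8.50, 5.76 and 5.73 in the knockout, so each compound A array was below the knockout array of its number although the groups overlapped (-2.36; adjusted p = 0.0673, and 0.000555 with the block). None of the mitosis genes passed without compound A array 2 or 3 or knockout array 1, and the median was -0.12 without knockout array 1.

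Ribosome production followed the same direction. Of 38 ribosome biogenesis genes, 19 fell and none rose, and 36 lay below 0, with a median of -0.30. Rrp1b, a nucleolar protein, read 10.26, 10.22 and 9.93 against 10.82, 10.72 and 10.74, a 1.54-fold fall (-0.62 ± 0.08; adjusted p = 0.000252). Nip7, needed to assemble the large ribosomal subunit, also fell (-0.53 ± 0.07; adjusted p = 0.000255). The number was 12 without compound A array 1, 10 without compound A array 3 and 9 without knockout array 2, with medians of -0.29 to -0.32, and 30 with array weights. Mitochondrial ribosomal proteins fell alongside, 29 of 70 (41.4%, beside the same 11.5%) with 1 rise (Mrpl23). Of the 70, 63 lay below 0, with a median of -0.25. With array weights 56 fell, and 44 on the arrays numbered 2 and 3. Mrpl54 read 8.60, 8.40 and 8.25 against 8.99, 9.34 and 9.34, a 1.75-fold fall (-0.81 ± 0.12; adjusted p = 0.000501), and Mrps6 fell 1.59-fold (-0.66 ± 0.13; adjusted p = 0.00284). The cytosolic ribosomal proteins themselves had a median of 0.01, with 1 fall among 35.

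Genes of quiescent and naive T cells were the list with the most rises. Of 27 tested, 13 rose, 1 fell (Slfn2) and 13 did not pass, beside 13.6% rises among all genes tested, and the median was 0.42. Tob1, which restrains T cell proliferation, read 9.20, 9.18 and 9.15 with compound A, 8.30, 8.37 and 8.40 in the knockout and 8.41, 8.40 and 8.42 in stimulated wild-type cells, a 1.77-fold rise over the knockout (0.82 ± 0.14; adjusted p = 0.00137). Tsc22d3, the glucocorticoid-induced leucine zipper protein, read 9.02, 9.43 and 9.55 against 7.84, 8.37 and 8.67, a 2.05-fold rise (1.04 ± 0.19; adjusted p = 0.00167). Cdkn1b, the cell cycle inhibitor p27, read 10.01, 9.76 and 9.93 against 9.26, 9.16 and 9.22, a 1.61-fold rise (0.68 ± 0.09; adjusted p = 0.000141). None of these 3 genes overlapped between the groups, and 48.0% of all genes tested did not overlap either. The knockout differed from stimulated wild-type cells by -0.05, 0.22 and 0.17, none of which passed (adjusted p = 0.899, 0.600 and 0.336). The other rises were Klf2, S1pr1, Foxp1, Btg1, Bach2, Dtx1, Cxcr4, Itga6, Tsc1 and Nfatc3. The number of rises was 8 without compound A array 2 and 21 with array weights.

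**Figure D5:**
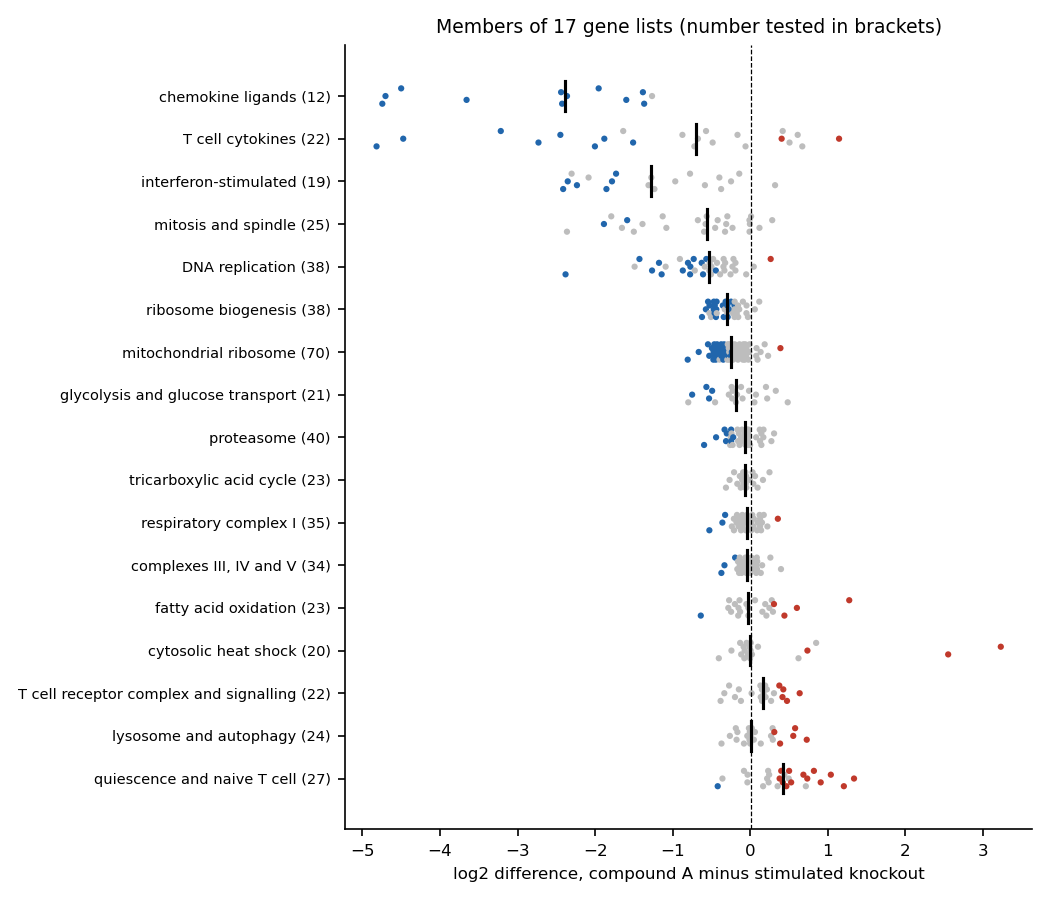
Members of 17 gene lists by log2 difference of compound A minus stimulated knockout, red for rises, blue for falls and grey for genes that did not pass, with each list's median as a black bar and the median of all genes as a dashed line. Chemokines have the lowest median (-2.39), quiescence genes the highest (0.42), and the tricarboxylic acid cycle and respiratory chain lists lie close to 0.

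Of the genes that ERRα is best known for controlling, those of the tricarboxylic acid cycle and the respiratory chain are set here beside 11.5% falls and 13.6% rises among all genes. None of 23 tricarboxylic acid cycle genes passed in limma, with a median of -0.07, and 2 had an unadjusted p under 0.05; with array weights 3 rose and 7 fell. Of 35 complex I genes, 3 fell (Ndufs8, Ndufs3 and Ndufb2) and 1 rose (Ndufa6), and of 34 genes of complexes III, IV and V, 3 fell (Cox5b, Atp5e and Atp5g1), each list with a median of -0.04. The falls were 8.57% and 8.82% of these 2 lists. With array weights they were 14 and 9, with 5 and 6 rises. Against stimulated wild-type cells, 6, 9 and 10 genes of these lists fell with compound A, in that order, beside 1281 of all 6873 genes. With compound A 19, 28 and 27 lay below those cells, beside 3753 of all genes. In the knockout 1 gene of each list fell, and 21, 30 and 34 lay below, beside 4542 of all genes. Ndufs8, a core subunit of complex I, read 12.05, 11.80 and 11.84 with compound A and 12.36, 12.45 and 12.47 in the knockout, a 1.44-fold fall (-0.53 ± 0.10; adjusted p = 0.00245). Cycs, cytochrome c, differed by -0.17 (adjusted p = 0.246) and Acadm, medium-chain acyl-CoA dehydrogenase, by -0.16 (adjusted p = 0.398), with overlapping arrays in both. The other tested Cycs probe sets passed in limma as falls, by -0.31 (adjusted p = 0.0226) and -0.44 (adjusted p = 0.0104). A p that misses the threshold does not show that the levels were equal.

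Fatty acid oxidation genes passed at a share near the 25.1% of all genes. Of 23 genes, 4 rose (Cpt1a, Acadvl, Acadl and Hadhb; 17.4%, beside 13.6%) and 1 fell (Eci1; 4.35%, beside 11.5%), and the median was -0.02. With array weights 7 rose and 6 fell. Cpt1a, which carries long-chain fatty acids into mitochondria and limits the rate of their oxidation, read 7.73, 6.89 and 6.82 with compound A, 6.17, 5.68 and 5.77 in the knockout and 5.33, 4.15 and 4.68 in stimulated wild-type cells. The 3 groups did not overlap, with compound A highest, 2.42-fold above the knockout (1.28 ± 0.29; adjusted p = 0.00602). Both differed from wild-type cells in the same direction, by 2.43 and 1.15. The other tested Cpt1a probe set differed by 0.46 and did not pass (adjusted p = 0.166), and the mean of both gave 0.59. Acadvl, very long-chain acyl-CoA dehydrogenase, read 10.18, 10.38 and 10.41 against 9.57, 9.79 and 9.81 and rose 1.52-fold (adjusted p = 0.00194). Eci1, an isomerase for unsaturated fatty acids, fell 1.56-fold (adjusted p = 0.00697). The calls of Acadl and Hadhb each ended when a single array was left out (adjusted p up to 0.117 without knockout array 3 and 0.133 without knockout array 1).

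Most glycolysis genes did not pass. Of 21 tested, 4 fell (Ldha, Pfkl, Pgam1 and Eno3; 19.0%, beside 11.5%) and none rose, with a median of -0.18. With array weights 9 fell and 4 rose. Ldha, lactate dehydrogenase A, read 13.29, 13.23 and 13.22 against 13.84, 13.81 and 13.68, a 1.45-fold fall (-0.53 ± 0.09; adjusted p = 0.00109). Slc2a1, the glucose transporter GLUT1, read 9.59 on all 3 compound A arrays and 10.01, 9.84 and 9.76 in the knockout, without overlap, and did not pass (-0.28; adjusted p = 0.230). Single targets of hypoxia-inducible factor moved in both directions. Ak4, a mitochondrial adenylate kinase, read 4.29, 4.48 and 4.06 against 6.75, 6.32 and 5.91, a 4.13-fold fall (-2.05 ± 0.25; adjusted p = 0.000141; -0.72 with the mean of its probe sets), and Egln3, an oxygen-sensing prolyl hydroxylase, fell 2.73-fold (-1.45 ± 0.16; adjusted p = 7.03e-05). Ndrg1, a stress-induced growth regulator, read 7.71, 8.00 and 8.08 against 6.59, 6.71 and 6.53, a 2.50-fold rise (1.32 ± 0.10; adjusted p = 2.31e-06). Over the 14 targets tested, 2 rose (14.3%, beside 13.6% of all genes), 3 fell (21.4%, beside 11.5%) and the median was -0.11.

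Promoters with the ERR element TCAAGGTCA were searched on both strands from 250 bases before to 50 after the start. The element occurs in 126 of 27025 promoters (0.466%) and in 20 of the 5666 promoters of tested genes (0.353%), with 3 of 799 among genes that rose (0.375%) and 3 of 649 among genes that fell (0.462%). Of those 20 genes, 6 passed, beside 25.1% of all genes tested, and their median difference was 0.04. The promoter of Esrra holds no match in this window. The largest differences among them were in Inpp4a, a phosphatase of the phosphoinositide pathway, and Cd84, a SLAM family receptor that supports T and B cell contacts, both named after their values were seen. Their matches are printed in capitals, since a reader can see the element in place; both lie on the plus strand of GRCm38.p6, Inpp4a at chr1:37369117-37369155 and Cd84 at chr1:171839447-171839474.
Inpp4a: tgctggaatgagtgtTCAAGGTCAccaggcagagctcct
Cd84: ggtgTCAAGGTCAgtttctcttgagtca
Inpp4a read 7.67, 7.86 and 7.84 with compound A and 6.77, 6.83 and 6.79 in the knockout, a rise of 0.99 ± 0.14 (adjusted p = 0.00039). Cd84 read 9.17, 8.84 and 8.90 against 7.91, 8.15 and 8.25, a rise of 0.87 ± 0.17 (adjusted p = 0.00306). Neither gene overlapped between the groups, nor did 48.0% of all genes tested. The other 4 differences were 0.49 in Clec2d, -0.66 in Mfsd10, -0.71 in Psmc3ip and -0.22 in Timm8b, and each of these calls ended without some single array (highest adjusted p of 0.128, 0.148, 0.0755 and 0.123, without knockout array 2, compound A array 2, compound A array 1 and compound A array 3).

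The response to stimulation was measured in resting and stimulated wild-type cells, on arrays that the comparison does not use. Genes that stimulation raised lay mostly below the knockout with compound A. Of 292 genes that rose at least 4-fold from resting to stimulated wild-type cells, 121 were lower with compound A than in the knockout (41.4%, beside 11.5% of all genes tested) and 4 were higher, with a median of -0.47. Of 503 genes that fell at least 4-fold on stimulation, 111 were higher (22.1%, beside 13.6%) and 33 lower (6.56%), with a median of 0.05. Markers of other cells also fell from resting to stimulated wild-type cells, 13 of 14 for macrophages, 7 of 8 for B cells and 5 of 7 for erythroid cells. So did 7 of 10 T cell markers, beside 2632 of all 6873 genes. The part of other cells in the 503 genes was not tested. Across the 6873 genes the difference between compound A and the knockout had a correlation of -0.26 with the stimulation response, a description over genes, which are not independent replicates.

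XCT790, a different ERRα inhibitor at the same dose and time, gave another reference. Between XCT790 and the knockout 4469 genes (65.0%) passed, and between compound A and XCT790 3585 (52.2%). The sets that follow were chosen from XCT790 against stimulated wild-type cells, on arrays that the comparison with the knockout does not use. Of 147 genes that it lowered at least 4-fold in stimulated wild-type cells, 76 were lower with compound A than in the knockout (51.7%) and none was higher, with a median of -1.13. Of 130 genes that it raised as much, 47 were higher (36.2%) and 3 lower, with a median of 0.41. The correlation across genes was 0.53. The compounds also differed from each other in single genes. Crabp2 read 2.31, 2.27 and 2.31 with XCT790, all under log2 4, so that compound A was at least 3.17-fold higher (adjusted p = 8.25e-10). Cmah was higher with compound A than with XCT790, with 8.04, 7.83 and 7.60 against 5.47, 6.59 and 6.33 with XCT790 (1.69; adjusted p = 0.000118), and Vat1 was higher by 1.36 (adjusted p = 0.000318).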

How the data were processed

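RNA of CD4+ T cells was labelled with biotin and hybridised to Affymetrix Mouse Genome 430A 2.0 arrays, per the labels. The authors deposited log2 values, 1 for each probe set, made with GCRMA per the submitters' processing notes; the version is not given in the sources used here. The identical sorted values of all 18 arrays show a quantile normalization after summary, so a change of total RNA is not seen.

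Groups were taken from the sample titles. Left out of the 22690 probe sets were 64 controls, 1555 that name no gene and 691 that name more than 1. Probe sets at log2 4 or more on at least 3 arrays were fitted together with limma 3.58.1 in R 4.3.3 (lmFit, contrasts and eBayes, 1 mean for each of 6 groups, two-sided tests, with 12 residual degrees of freedom and 2.33 from the prior), with Benjamini-Hochberg adjustment over 10691 probe sets and a threshold of 0.05. Each gene was represented by its probe set of highest mean over 18 arrays; 2525 genes had several, and in 10 of them probe sets passed in opposite directions. Tables and figures used Python 3.11.15, pandas 2.3.3, numpy 2.4.6 and matplotlib 3.10.9. Errors are standard errors of the fit. Where an array of the lower group was under log2 4, it was set to 4 and the fold is given as "at least". On simulated data for this comparison, 50 of 10691 probe sets were changed at each size. The fit recovered 66% of the 1.5-fold, 90% of the 2-fold, 96% of the 4-fold and 98% of the 8-fold changes, and 7.41% of its calls were false. The simulated noise was independent between arrays, and far fewer probe sets were changed than the 2574 that passed in the data. These rates therefore need not hold for the data.

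The samples, gene lists and tests were chosen with earlier results of these data known. The text names Esrra; the genes with the 15 largest rises and the 15 largest falls, among those past the threshold without overlap of the arrays, values under log2 4 set to 4; from each list described, up to 6 members ranked by adjusted p, and any limiting or defining member of a list that changed little; and Il2, Ifng, Il2ra, Slc2a1, Cpt1a, Cycs, Acadm and Myc. Genes outside the rule are marked, except where all members of a list that passed are named.

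Equally numbered arrays of both groups deviated together from their group means (correlations across probe sets of 0.334, 0.356 and 0.189, each array closest to its own number). The titles give the numbers but no shared animal or day, so this pairing comes from the numbers and the data, and the fit with the number as a block is an alternative. Other settings tried were a floor of log2 6 or none, a single probe set or the mean of all for a gene, centring each array on its median, fitting the 2 groups by themselves, a robust prior with a trend, weighted arrays (array weights), testing against a limit of 2-fold, leaving out each array, and, added after seeing the data, the arrays numbered 2 and 3 alone. Sums of marker signals without genes described as results were also added after seeing the data. Promoter sequences came from RefSeq, build GRCm38.p6.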

Additional observations from a re-analysis of the deposited data

Results flagged for a closer look

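Compound A and XCT790 moved 12 of the named genes in opposite directions from stimulated knockout cells, with all 3 differences past the threshold in limma, and the same 3 knockout arrays serve both comparisons. Of all genes tested, 70 met these conditions, while 1388 passed in the same direction with both compounds. The log2 difference of compound A minus XCT790 was -5.04 for Ak4, -2.69 for Egln3, -1.65 for Ero1a, -1.85 for Pfkl and -0.86 for Pgam1, which are targets of hypoxia-inducible factor or enzymes of glycolysis. It was -4.04 for Maff, a small MAF transcription factor whose compound A arrays were all under log2 4, -2.18 for Abcg1 and -2.22 for Mylip, both targets of the liver X receptor, and -1.82 for the drug transporter Abcb1b. Compound A was higher for Cd3g, a subunit of the T cell receptor complex (1.43), for the glutathione transferase Gstp1 (1.18) and for the interferon-induced GTPase Irgm2 (1.17). Ak4 shows the pattern on single arrays, with 4.29, 4.48 and 4.06 with compound A, 6.75, 6.32 and 5.91 in the knockout and 8.83, 9.51 and 9.61 with XCT790, and the 3 groups did not overlap.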

How the results depend on the processing

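The 1726 genes that passed between compound A and stimulated knockout cells became 3826 with array weights, 13 against a limit of 2-fold (2 higher and 11 lower) and 2691 on the arrays numbered 2 and 3 alone, an alternative added after seeing the data; leaving out single arrays gave 1029 to 1678. For compound A against stimulated wild-type cells, 2271 genes passed, 4010 with array weights and 38 against the limit. For the knockout against stimulated wild-type cells, 203 passed, 1546 with array weights, 13 against the limit, 487 on the arrays numbered 2 and 3, and 95 to 212 with an array left out. Against the limit, XCT790 kept 485 of 4469 differences from the knockout, and compound A 182 of 3585 from XCT790. The cause of these changes was not tested, beyond the stricter threshold of the limit and the smaller number of arrays. With the array number as a block, for the pairing of equally numbered arrays, 1911 genes passed, 1680 of them among the 1726 in the same direction. Of the named genes the block ended the calls of Psmc3 and Ptpn22. Over 16 settings other than the limit, 9 of the 15 largest falls and 13 of the 15 largest rises passed every time. Those that did not were Car2, Ifitm2, Ifitm3, Lyz1, Lyz2 and S100a8, and Hspa1a and Hspa1b. None of the 30 changed direction, but they were chosen without overlap of the arrays, so leaving out arrays could not reverse them. Signals under log2 4 limit the folds of Ubd, Il21, Il6, Ccl1 and Rab4a to bounds.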

Other observations

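Other gene groups differed in parts, and their counts are set beside 13.6% rises and 11.5% falls among all genes tested. Of 15 p53 targets, 5 fell (33.3%) and 3 rose, with a median of -0.20. Cdkn1a, the cell cycle inhibitor p21, read 8.55, 8.10 and 8.22 with compound A and 10.99, 9.68 and 9.68 in the knockout, a 3.55-fold fall (-1.83 ± 0.37; limma adjusted p = 0.00335). Phlda3, an inhibitor of AKT, read 5.43, 5.08 and 5.10 against 8.18, 7.36 and 7.71, a 5.81-fold fall (-2.54 ± 0.37; adjusted p = 0.000378). Of 26 AP-1 and early response genes, 6 fell (23.1%) and 1 rose, with a median of -0.12; Batf, a factor of Th17 and effector differentiation, fell 1.99-fold (adjusted p = 0.00565). The falls were 3 without compound A array 2.

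Lipid genes split by enzyme. Acss2, which makes acetyl-CoA from acetate, read 8.09, 7.70 and 7.78 against 6.72, 6.86 and 6.78, a 2.10-fold rise (1.07 ± 0.14; adjusted p = 0.000213). Of 22 genes of cholesterol synthesis and uptake, 5 fell (22.7%) and 1 rose, with a median of -0.14, and 1 fell without compound A array 3. Stress programmes were mixed. Of 28 ATF4 target genes, 6 rose (21.4%) and 1 fell, with a median of 0.02, and 3 rose without compound A array 2 or 3 or knockout array 1. Ddit3, the stress-induced transcription factor CHOP, read 8.34, 8.80 and 8.98 against 7.91, 7.55 and 7.54, a 2.05-fold rise (adjusted p = 0.00764). In contrast 6 of 27 unfolded protein response genes fell (22.2%) and 1 rose, with 3 falls without compound A array 2 or 3 or knockout array 1. Of 22 genes of the T cell receptor complex and its signalling, 5 rose (22.7%) and none fell, and with array weights 9 rose and 6 fell. Dgka, which dampens receptor signalling, read 12.26, 12.33 and 12.30 against 11.47, 11.74 and 11.76, a 1.55-fold rise (0.64 ± 0.11; adjusted p = 0.00145).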
